A study of Mus musculus with 3 samples.

Results

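Fasl, Tnf, Lta and Ltb encode ligands of the TNF family with which NK cells (NKC) act on other cells. The 4 genes were taken by symbol from the mouse annotation of the mm9 genome assembly, which held 22350 protein-coding genes, and each gene body was examined with 20 kb on either side, called its window here. Runx3-bound regions and H3K4me1-marked regions that shared at least 1 bp with a window were listed for each gene. The data came from chromatin immunoprecipitation sequencing (ChIP-seq) of resting splenic NKC of ICR mice, which were isolated fresh by negative selection, sorted, and fixed without culture or cytokine. Runx3 was precipitated with an in-house polyclonal antibody and monomethylated lysine 4 of histone H3 (H3K4me1) with a monoclonal one, while non-immune rabbit serum (NIS) gave the control against which regions were called. There was 1 list of regions per antibody, and the labels name no mutation, age or sex of the animals. The labels name NKp46 as the marker of the sort, whereas the methods of the study name DX5, and the lists do not settle which was used.

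As background, FasL is a membrane ligand that triggers death of target cells through the receptor Fas. TNF is released by activated lymphocytes and signals inflammation, survival or death through the receptors Tnfrsf1a and Tnfrsf1b. Lymphotoxin alpha, the product of Lta, binds the TNF receptors as a homotrimer, and together with lymphotoxin beta, the product of Ltb, it forms a membrane complex that binds Ltbr and directs the formation of lymphoid tissue. Tnf, Lta and Ltb lie side by side within the major histocompatibility complex. Runx3 is a transcription factor of the RUNX family that is highly expressed in cytotoxic lymphocytes, and H3K4me1 is a histone mark of enhancers and of the flanks of active promoters.

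The lists held 15524 Runx3 peaks and 49902 H3K4me1 regions. They carried positions and no score, so that presence, number, width and position could be read, and strength of binding could not. With 1 list per antibody there was no spread between replicates, and every value below is a description without a test. The regions came from a bulk population, in which binding in some of the cells and in all of them cannot be told apart. The lists were read against cell type markers in the same windows. All 5 NK markers (Ncr1, Klrb1c, Itga2, Eomes and Tbx21) had a Runx3 peak, and H3K4me1 covered 29.8 to 78.7% of their windows with a median of 52.8%. For 5 markers each of T, B and myeloid cells the number with a peak was 2, 3 and 4, against 51.0% of all protein-coding genes. Cover ranged from 0 to 43.4% in the T cell markers (median 8.42%), from 0 to 28.2% in the B cell markers (7.24%) and from 0 to 37.0% in the myeloid markers (11.3%), so the upper ends of the T cell and myeloid ranges lay above the lowest NK marker, Eomes, at 29.8%. None of these 15 genes had an annotated start inside a Runx3 peak, against 4 of the 5 NK markers. The share over all protein-coding genes was 24.2%. Starts in H3K4me1 differed less, with 3 of the 5 NK markers and 1, 2 and 1 of the T, B and myeloid markers. Of all protein-coding genes, 43.6% had a start in H3K4me1. Among the T cell markers, Cd3e and Cd3g, which encode chains of the T cell receptor complex, had 2 Runx3 peaks each with covers of 27.3 and 43.4%, and the start of Cd3g lay in H3K4me1, whereas Cd8a and Cd8b1 had neither a peak nor H3K4me1 in their windows and Cd4 had 0 peaks with a cover of 8.42%. The windows of Cd3e and Cd3g overlap, as do those of Cd8a and Cd8b1, so their counts are not separate observations. Any part of other cell types in the lists was not tested.

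All 4 ligand genes had Runx3 peaks in their windows, against 51.0% of all protein-coding genes. Fasl, which lies on chromosome 1 from 163710820 to 163718626 on the minus strand, had 9 Runx3 peaks. Ltb (chromosome 17, 35331384 to 35333265, plus strand) had 6. Tnf (chromosome 17, 35336326 to 35338952, minus strand) had 5, and Lta (chromosome 17, 35340110 to 35342296, minus strand) also had 5. The median over all protein-coding genes was 1 peak per window and the 95th percentile was 4, so each of the 4 genes lay above that percentile.

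The number for Fasl was reached or exceeded in 116 of the 22350 genes (0.519%). The corresponding share was 2.19% for the number at Ltb and 4.08% for that at Tnf and Lta. Because a longer gene has a longer window, the peaks were also given per length. Fasl had 1.88 peaks per 10 kb, a density reached by 13 genes including Fasl itself. Ltb, Lta and Tnf had 1.43, 1.19 and 1.17 peaks per 10 kb, against a median of 0.04588 and a 95th percentile of 0.6645. The windows of neighbouring genes overlap, so these genes are not independent of each other.

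**Figure D1:**
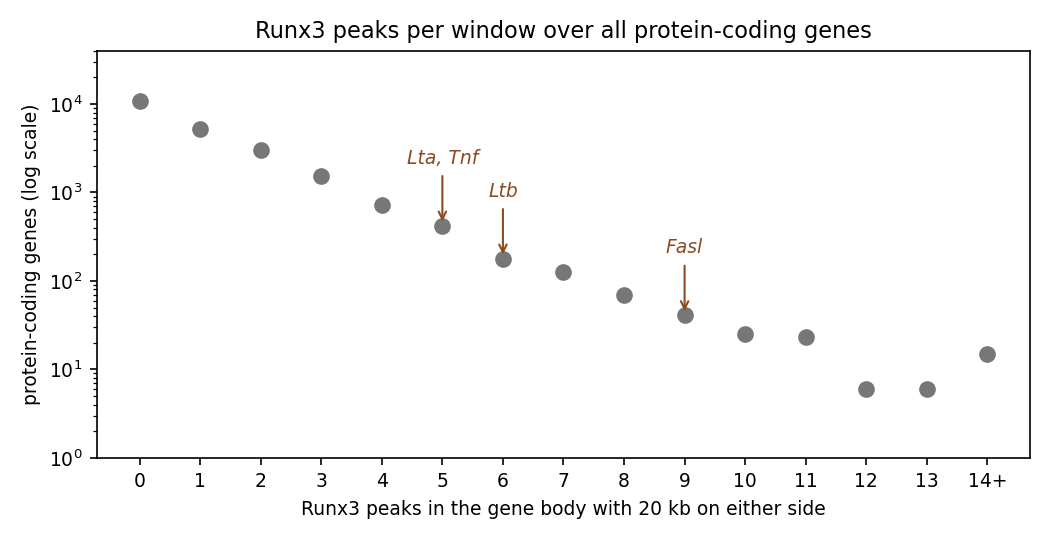
Number of protein-coding genes (log scale, points) by the number of Runx3 peaks in the gene body with 20 kb on either side, with genes of 14 or more peaks in the last point. Arrows mark the ligand genes, of which Fasl had 9 peaks, Ltb 6, and Tnf and Lta 5, while 10947 genes had 0.

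The windows of Tnf, Lta and Ltb overlap, and their counts are therefore not separate observations. Ltb and Tnf are 3060 bp apart and Tnf and Lta 1157 bp. Of the peaks counted for the 3 genes, 4 lay in all 3 windows. Ltb and Tnf shared 5 peaks, whereas Ltb and Lta as well as Tnf and Lta shared 4. The joined window of 50.9 kb, chromosome 17 from 35311384 to 35362296, held 7 different Runx3 peaks, or 1.37 per 10 kb. Of all protein-coding genes, 1.39% had as many as 7 in their own window. In what follows the peaks at Fasl are named F1 to F9 and those at the Tnf, Lta and Ltb locus T1 to T7, each in the direction in which Fasl or Tnf is transcribed.

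H3K4me1 covered most of both loci. It lay over 46.7 kb of the 47.8 kb Fasl window (97.7%), against a median of 7.381% and a 95th percentile of 38.33% over all protein-coding genes. Fasl was 1 of 2 genes with such a high cover. At the Tnf locus H3K4me1 lay over 40.2 kb of the joined window (79.0%). The windows of Tnf, Lta and Ltb were covered by 78.7, 78.4 and 78.1%, values that 23, 24 and 25 of the 22350 genes reached. All 4 genes had at least 1 H3K4me1 region, as did 74.0% of all protein-coding genes.

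The starts of the ligand genes differed in Runx3 and were alike in H3K4me1. The start of Fasl lay inside a Runx3 peak, and those of Tnf, Lta and Ltb did not. That is 1 of 4 genes, against 24.2% of all protein-coding genes with an annotated start in a peak. The nearest edge of a peak was 953 bp from the Tnf start, 1950 bp from the Ltb start and 4297 bp from the Lta start. All 4 starts lay in H3K4me1 regions, against 43.6% of all protein-coding genes, and the starts of Tnf and Ltb lay in the same region. Within 1 kb on either side of the start, H3K4me1 covered 69.7% of the sequence at Fasl, 85.4% at Lta, 92.3% at Tnf and all of it at Ltb.

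The sequences directly upstream of the 4 starts are shown because the starts differed in their overlap with Runx3 peaks. The 300 bases around the Fasl start (250 before and 50 after it) lay wholly in a Runx3 peak and in H3K4me1. The corresponding 300 bases of Tnf, Lta and Ltb lay wholly in H3K4me1 with 0 bases in a Runx3 peak. The sequences are the RefSeq promoters of GRCm38.p6, all 4 of which were found once on their chromosome in mm9, the build of the coordinates. They are reference sequence and not that of ICR mice, run 5′ to 3′ on the strand of the gene, and end at the base before the start. For Ltb 182 bases are shown, since its RefSeq start is 68 bp downstream of the annotated start used here. Capitals mark matches to the searched consensus sequences on either strand. RUNX was searched as TGTGGT, with TGTGGC, with TGCGGT and with TGCGGC as its variants, ETS as AGGAAGT or else CGGAAGT, and AP-1 as TGACTCA, which is TGAGTCA on the other strand. T-box was searched as GGTGTGA, NFAT as TGGAAA, SP1 as GGGCGG, and NF-kB by its consensus.
Fasl, upstream of the start, chr1:163718627-163718876 (minus strand): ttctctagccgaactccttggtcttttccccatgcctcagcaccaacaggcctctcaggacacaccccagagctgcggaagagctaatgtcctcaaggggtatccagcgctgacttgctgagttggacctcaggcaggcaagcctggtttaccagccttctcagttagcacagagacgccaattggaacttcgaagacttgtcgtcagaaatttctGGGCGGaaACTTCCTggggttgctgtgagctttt
Tnf, upstream of the start, chr17:35338953-35339202 (minus strand): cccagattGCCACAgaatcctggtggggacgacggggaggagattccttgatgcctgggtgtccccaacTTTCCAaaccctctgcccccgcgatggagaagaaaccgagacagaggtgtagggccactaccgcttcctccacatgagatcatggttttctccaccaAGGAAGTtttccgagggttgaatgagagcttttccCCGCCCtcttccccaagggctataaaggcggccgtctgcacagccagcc
Lta, upstream of the start, chr17:35342297-35342546 (minus strand): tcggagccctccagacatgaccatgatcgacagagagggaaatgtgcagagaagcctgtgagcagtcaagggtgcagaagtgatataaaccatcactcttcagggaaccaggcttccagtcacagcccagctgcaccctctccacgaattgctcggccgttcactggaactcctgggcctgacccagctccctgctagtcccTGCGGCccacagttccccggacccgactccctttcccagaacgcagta
Ltb, upstream of the start, chr17:35331202-35331383 (plus strand): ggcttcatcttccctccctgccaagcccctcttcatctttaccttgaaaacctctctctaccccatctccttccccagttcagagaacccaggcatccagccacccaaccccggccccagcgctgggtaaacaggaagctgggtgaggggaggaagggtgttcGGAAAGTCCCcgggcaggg

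A short stretch upstream of Fasl held an ETS match 26 bp and an SP1 match 34 bp from the start. The Fasl promoter held no RUNX match in these 300 bases, although it lay in a Runx3 peak. The Tnf promoter held RUNX (TGTGGC), NFAT, ETS and SP1 matches 242, 181, 84 and 49 bp upstream of the start, and the Lta promoter held TGCGGC 48 bp upstream and a further RUNX match 16 bp downstream. In the Ltb promoter a match to the NF-kB consensus lay 87 bp upstream of the RefSeq start. Of 32851 RefSeq promoters of the same length, 45.2% held a RUNX match, 35.7% SP1, 21.4% NFAT, 15.1% ETS, 8.46% NF-kB, 5.2% AP-1 and 3.98% T-box. A match shows that the letters are present and does not show a bound site.

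The Fasl window had no other annotated gene, and its 9 Runx3 peaks were arranged on both sides of the gene. Upstream there were 3 peaks. F1 (163734320 to 163735454) had its midpoint 16.3 kb, F2 (163728794 to 163729706) 10.6 kb and F3 (163724433 to 163725487) 6.33 kb from the Fasl start. F4 (163717885 to 163718996) covered the start and the first exon.

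Downstream of the gene, there were 5 further peaks. The midpoints of F5 (163708990 to 163709925), F6 (163706610 to 163707422) and F7 (163704455 to 163705924) lay 9.17, 11.6 and 13.4 kb from the start. F8 (163696269 to 163697813) and F9 (163694801 to 163695755) lay 21.6 and 23.3 kb away. These 5 peaks and the 3 upstream ones were intergenic, and 8 of the 9 lay over 5 kb from the nearest annotated start. The study reported a majority of all its Runx3 peaks in resting NKC at such distances, measured to RefSeq starts. That share was not recomputed here.

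The Fasl peaks were 813 to 1545 bp wide with a median of 1055 bp, and 8 of the 9 were wider than the median of all Runx3 peaks, 825 bp. F8 was the widest at the 2 loci, and 2.76% of all peaks were as wide. Gaps between neighbouring peaks ranged from 513 bp, between F8 and F9, to 7959 bp, between F4 and F5, the interval that holds most of the gene body. Peaks covered 20.8% of the Fasl window. Outside the window the next peak was 67.1 kb beyond its upstream edge and 25.2 kb beyond its downstream edge.

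**Figure D2:**
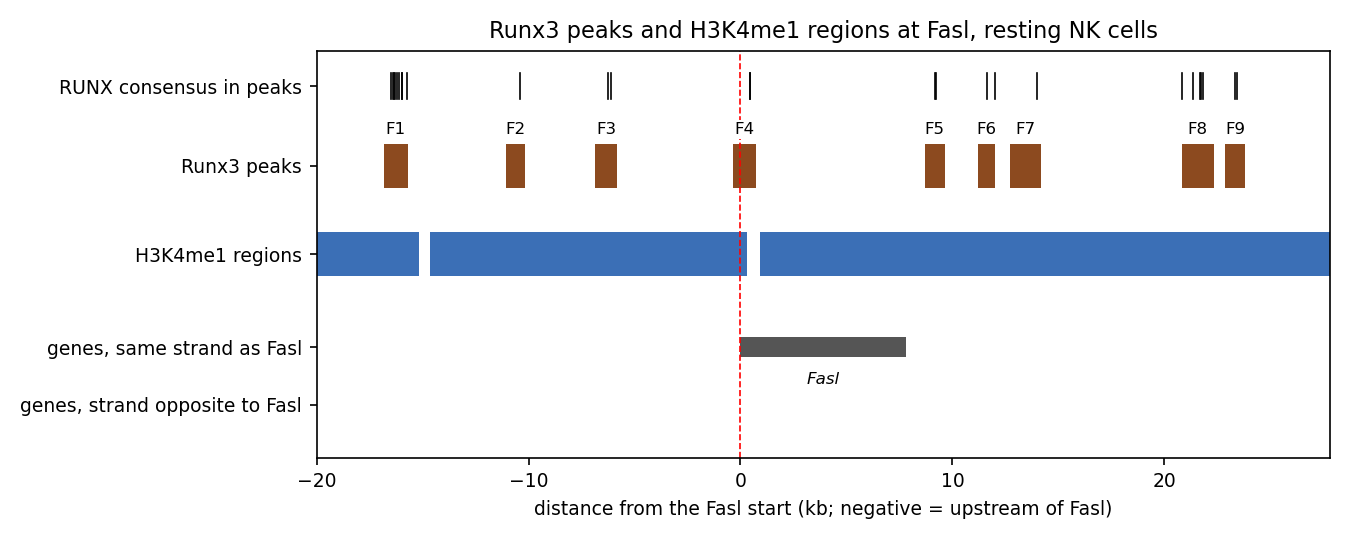
Map of the Fasl window by distance from the Fasl start (kb, dashed line, transcription to the right), with RUNX consensus matches inside peaks (ticks), Runx3 peaks (brown), H3K4me1 regions (blue) and genes (grey), none of them on the strand opposite to Fasl. The 9 peaks stand on both sides of the gene, and the blue track is interrupted by 2 gaps of 514 and 607 bp.

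H3K4me1 at Fasl was called as 3 regions, among the wider ones of the list. The downstream region (163690532 to 163717708) was 27.2 kb wide, and 0.134% of all H3K4me1 regions were as wide. It covered most of the gene body and the 5 downstream peaks F5 to F9, a number held by 0.162% of regions. That share is over regions of all widths, with a median of 1801 bp, and was not adjusted for width. The region at the start (163718316 to 163733286) was 15.0 kb wide and touched F2, F3 and F4. The upstream region (163733801 to 163741597) was 7.8 kb wide and held F1. In the whole list 28.6% of regions held a peak.

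The gaps between these regions differed in their relation to Runx3. A gap of 607 bp (163717709 to 163718315) began 311 bp downstream of the Fasl start, in the coding part of the first exon, and 431 bp of it lay in F4. F4 was accordingly marked over 61.2% of its length, while the other 8 peaks were marked over their whole length. The gap of 514 bp (163733287 to 163733800), between F1 and F2, held no bases of a peak.

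F4 was the only peak of the Fasl window over a gene. Of its 1112 bp, 370 lay upstream of Fasl, 210 in UTR, 342 in coding sequence and 190 in the first intron. Its RUNX matches, a TGTGGT and a TGTGGC, lay within 1 stretch of the coding part of the first exon, 247 and 262 bp from the midpoint of the peak. The stretch is shown with that of F9, whose match was closest to a midpoint at the 2 loci (5 bp), and with stretches of F5, F6 and F8. F8 held an AP-1 match in the same stretch, left in lower case. Capitals mark RUNX matches that lie wholly in a stretch, which read as the reverse complement where the match is on the other strand. The TGTGGC match of F5 is cut by the end of its stretch and left in lower case.
F4, chr1:163718164-163718223 (minus strand): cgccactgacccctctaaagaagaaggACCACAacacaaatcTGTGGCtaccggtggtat
F5, chr1:163709403-163709462 (minus strand): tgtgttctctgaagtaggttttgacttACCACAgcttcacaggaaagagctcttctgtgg
F6, chr1:163706968-163707027 (minus strand): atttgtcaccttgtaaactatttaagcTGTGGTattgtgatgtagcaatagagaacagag
F8, chr1:163696905-163696964 (minus strand): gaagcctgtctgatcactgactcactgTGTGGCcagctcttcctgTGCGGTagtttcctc
F9, chr1:163695243-163695302 (minus strand): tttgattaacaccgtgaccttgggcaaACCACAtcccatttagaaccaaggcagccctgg

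All 9 Fasl peaks held a RUNX match, 26 in total. F1 held 9, the most at either locus, F8 held 5, F2 and F7 held 1 each and the other 5 peaks 2 each. TGTGGT occurred 13 times, TGTGGC 11, TGCGGT 2 and TGCGGC 0 times.

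A RUNX match was common in windows of these lengths, so its presence did not set the Fasl peaks apart. Windows of the same lengths at the midpoints of all Runx3 peaks held a match in 93.8 to 98.1%, and windows in H3K4me1 regions without a Runx3 peak in 80.6 to 94.3%. Such a window reaches beyond the ends of a narrower peak, so these are not shares of whole peaks with a match. These backgrounds lay further apart in the middle of the peaks. In the central 200 bp, 5 of the 9 Fasl peaks held a match, against 69.2% of all Runx3 peaks and 35.2% of the peak-free H3K4me1 windows. The nearest match was 36 bp from the midpoint in F1, 25 bp in F5, 18 bp in F6 and 77 bp in F3, whereas it was 106 bp away in F8, 196 bp in F2, 247 bp in F4 and 533 bp in F7.

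The Tnf locus was denser in genes. Besides Tnf, Lta and Ltb, 5 genes overlapped the joined window, of which the leukocyte transcript Lst1, the pseudogene Ncr3-ps and Gm16181 lay wholly inside and Aif1 and Nfkbil1 partly. None of its 7 Runx3 peaks lay over 5 kb from an annotated start, against 8 of the 9 at Fasl, whose window held no other gene. Of all Runx3 peaks in resting NKC, the study reported a majority at such distances. Upstream of Tnf and Lta there was 1 peak. T1 (35359098 to 35359903) was 17205 bp upstream of the Lta start and 20.5 kb upstream of the Tnf start, in introns of Nfkbil1 and Gm16181, which overlap each other on opposite strands.

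T2 (35337025 to 35337999) was the peak inside Tnf, and 2 of the 4 ligand genes thus had a peak in the gene body, against 33.6% of all protein-coding genes. The 4 genes are 1882 to 7807 bp long, and that share is over genes of all lengths. The midpoint of T2 lay 1440 bp downstream of the Tnf start. Of its 975 bp, 464 lay in coding sequence, 68 in UTR and 443 in introns. Ltb and Lta had 0 peaks in the gene body. Between T2 and T1 there were 21098 bp without a Runx3 peak, and this interval held the Tnf start and the whole of Lta.

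The other peaks lay beyond the 3′ end of Tnf, on the upstream side of Ltb, which is transcribed in the opposite direction. T3 (35328729 to 35329434) was intergenic with its midpoint 2302 bp upstream of the Ltb start. T4 (35326700 to 35327748) was 4160 bp and T5 (35322604 to 35323431), in an intron of Lst1, 8366 bp upstream of Ltb. T6 (35316662 to 35317583) covered the start of Ncr3-ps, and T7 (35315302 to 35316174) was intergenic beside it, 14261 and 15646 bp upstream of Ltb. In the joined window, Ltb thus had 5 peaks on its upstream side, while Tnf and Lta shared 1, T1, which lay inside the window of Lta and outside that of Tnf.

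**Figure D3:**
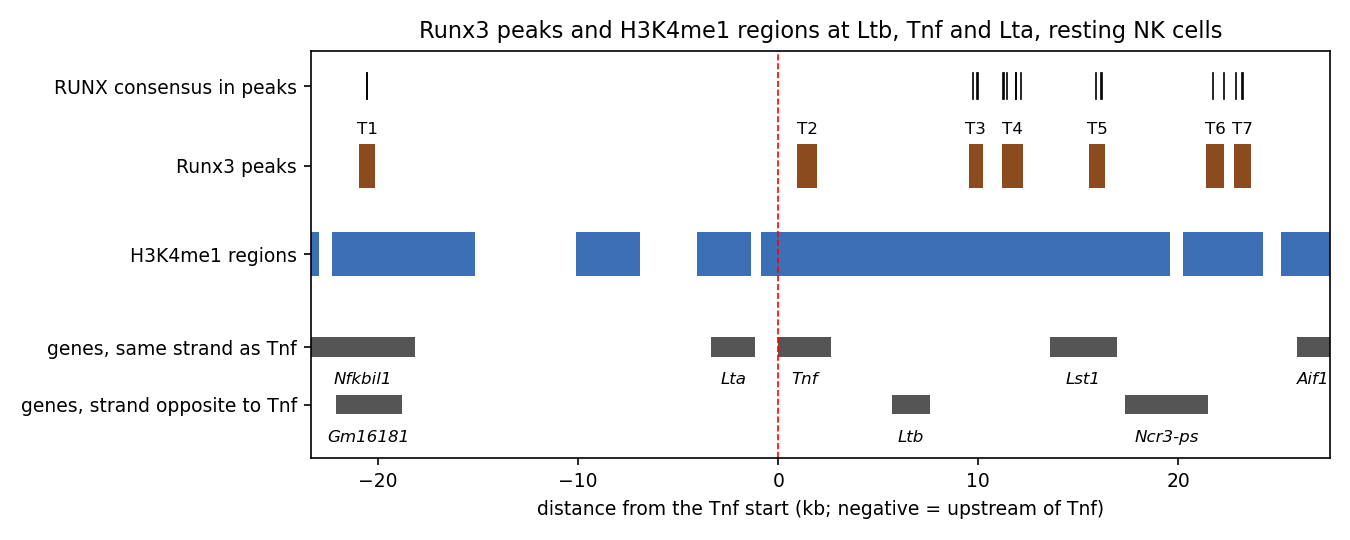
Map of the joined window of Tnf, Lta and Ltb by distance from the Tnf start (kb, dashed line, Tnf and Lta transcribed to the right, Ltb to the left), with RUNX consensus matches inside peaks (ticks), Runx3 peaks (brown), H3K4me1 regions (blue) and genes on either strand (grey). T3 to T7 stand on the Ltb side, 21098 bp without a peak separate T2 from T1, and T2 carries no tick.

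The peaks of the Tnf locus were 706 to 1049 bp wide with a median of 873 bp, and 5 of the 7 were wider than 825 bp. They covered 12.1% of the joined window. Outside it the next Runx3 peaks were 5.46 kb beyond the edge on the Nfkbil1 side and 38.5 kb beyond the edge on the Aif1 side.

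H3K4me1 was called as 7 regions at the Tnf locus. The widest (35319357 to 35339798) spanned 20.4 kb from Ncr3-ps over Lst1, Ltb and Tnf to just upstream of the Tnf start. It held T2, T3, T4 and T5, and 0.325% of all regions were as wide and 0.349% held as many peaks, a share not adjusted for width. The start of Lta lay in a separate region of 2668 bp (35340336 to 35343003) that held no Runx3 peak. It was parted from the first by a gap of 537 bp (35339799 to 35340335) that reached into the 3′ end of Lta. The region with T6 and T7 (35314745 to 35318720) was 3976 bp wide, and that with T1 (35354108 to 35361234) 7127 bp. The other 3 regions held no Runx3 peak. Gaps between regions ranged from 537 to 5028 bp, and none held bases of a peak.

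In the 2 loci together, 16 of 16 Runx3 peaks shared bases with H3K4me1, against 95.7% of all Runx3 peaks, a share near that background. All but F4 lay wholly in H3K4me1, and the midpoint of each of the 16, F4 included, lay in a marked region. In the reverse direction, 6 of the 10 H3K4me1 regions held a peak, against 28.6% of all H3K4me1 regions. All 10 were wider than the median of that list, 1801 bp, so the shares are not of like widths.

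RUNX matches occurred in 6 of the 7 peaks of the Tnf locus, 19 in total, and T2, the peak inside Tnf, had none. T4 held 6 matches, T3, T5 and T7 held 3 each and T1 and T6 2 each. TGTGGT made up 14 of the 19, TGTGGC and TGCGGT 2 each and TGCGGC 1. Windows of the same lengths held a match in 92.4 to 95.9% at the midpoints of all Runx3 peaks and in 76.5 to 87.1% at those of peak-free H3K4me1 regions. In the central 200 bp 5 of the 7 held a match, against 69.2% of all Runx3 peaks and 35.2% of the peak-free H3K4me1 windows. The distance from the midpoint was 18 bp in T1, 24 bp in T7, 49 bp in T5, 60 bp in T3, 93 bp in T6 and 149 bp in T4. The stretches around these matches are shown for the peak upstream of Lta, for the 3 peaks closest to the Ltb start on its upstream side and for the peaks at Ncr3-ps, with whole RUNX matches in capitals. A TGCGGT match of T4 is cut by the end of its stretch and left in lower case.
T1, chr17:35359453-35359512 (minus strand): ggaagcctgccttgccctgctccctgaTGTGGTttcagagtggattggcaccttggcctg
T3, chr17:35328992-35329051 (minus strand): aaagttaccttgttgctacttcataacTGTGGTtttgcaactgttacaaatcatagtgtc
T4, chr17:35327045-35327104 (minus strand): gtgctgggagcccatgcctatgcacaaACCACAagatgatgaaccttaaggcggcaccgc
T5, chr17:35323037-35323096 (minus strand): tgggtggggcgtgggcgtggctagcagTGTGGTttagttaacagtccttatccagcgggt
T6, chr17:35317186-35317245 (minus strand): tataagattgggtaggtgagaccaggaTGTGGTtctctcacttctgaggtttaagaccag
T7, chr17:35315684-35315743 (minus strand): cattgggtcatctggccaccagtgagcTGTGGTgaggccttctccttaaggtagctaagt

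T2 is shown because it lacked the RUNX consensus. Windows of its length at the midpoints of all Runx3 peaks held a RUNX match in 95.4%. Its 2 AP-1 matches, 20.5 and 163.5 bp from the midpoint, and its ETS match, 84.5 bp from it, all lay in the third intron of Tnf (35337509 to 35337802, 294 bp). Of windows of the same length at the midpoints of all Runx3 peaks, 18.0% held an AP-1 match and 43.5% an ETS match. Capitals mark the AP-1 and ETS matches, and an NFAT match between them is left in lower case.
T2, chr17:35337514-35337693 (minus strand): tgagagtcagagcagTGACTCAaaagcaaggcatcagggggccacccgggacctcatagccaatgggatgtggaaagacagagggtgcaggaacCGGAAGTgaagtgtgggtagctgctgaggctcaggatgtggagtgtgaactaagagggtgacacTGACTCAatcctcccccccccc

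Matches of the other factors were counted over the 16 peaks. Beside them stands the mean share of windows of the same lengths at the midpoints of all Runx3 peaks and of peak-free H3K4me1 regions. ETS matches occurred in 9 peaks, 4 at Fasl and 5 at the Tnf locus, against 43.8 and 36.1%. The AP-1 consensus occurred in 4 peaks (F1, F8, T2 and T3), against 18.3 and 17.6%. NFAT, a factor that activation of lymphocytes brings into the nucleus, had matches in 12 peaks, 8 at Fasl and 4 at the Tnf locus, against 54.7 and 59.9%. SP1 matches were found in 4 peaks (F4, F5, T2 and T5), against 44.1 and 27.5%, T-box matches in 1 (T1), against 18.2 and 16.4%, and NF-kB matches in 1 (F7), against 21.4 and 17.9%. The matches of different factors did not overlap in the 16 peaks. With 16 peaks from 2 loci, these counts are given as a description. The GC content of the peaks was 39.6 to 52.2% at Fasl with a median of 43.6%, and 43.8 to 55.3% at the Tnf locus with a median of 50.7%, which is also the median of all Runx3 peaks.

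The genes that act with the 4 ligands were listed by role, as 20 receptors, shedding proteases, signalling proteins and inhibitors. Of these, 15 had a Runx3 peak in the window, with a median of 1.5 peaks, against 51.0% of all protein-coding genes and a median of 1. The listed genes had windows of 45.1 to 141 kb, against a median of 55430 bp over all protein-coding genes. The counts were not adjusted for length, and some windows overlap, as those of Birc2 and Birc3 do. A start lay in a Runx3 peak in 10 of the 20 and in H3K4me1 in 16 of the 20, against 24.2 and 43.6%. H3K4me1 cover in the list ranged from 6.23 to 59.5% of the window, and each of the 4 ligand genes was above this range.

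Of the 5 receptor genes, 2 had a Runx3 peak. Fas, the receptor of FasL, had 0 Runx3 peaks, H3K4me1 over 6.23% of its window and no H3K4me1 at its start. Ltbr, the receptor of the lymphotoxin alpha and beta complex, also had 0 peaks with a cover of 8.52%, and Tnfrsf14, a receptor of lymphotoxin alpha and of a related ligand, had 0 peaks and 30.1%. Tnfrsf1b, a TNF receptor found mainly on leukocytes, had 9 peaks, as many as Fasl, over a longer window of 73.4 kb (1.23 per 10 kb). Of these, 5 lay in the gene body, and H3K4me1 covered 59.5% of the window. None of the 5 receptor genes had a start in a Runx3 peak.

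Of 4 genes for enzymes that cleave these ligands from the membrane or process their stubs, 3 had 3 Runx3 peaks each. These were Adam17, which encodes the protease that releases TNF, and Sppl2a and Sppl2b, whose products are intramembrane proteases that cleave such stubs. Adam10, which encodes a protease that sheds FasL, had 0 peaks and a cover of 14.6%. Of 5 death signalling genes, 4 had a peak. Tradd, the adaptor of Tnfrsf1a, had 4 peaks and a cover of 35.8%, and Cflar, an inhibitor of Casp8, had 0 peaks and 20.9%. All 5 genes of the NF-kB arm had a peak, led by the adaptors Traf2 (3 peaks, 40.0%) and Traf3 (3 peaks, 16.6%). Tnfaip3, an inhibitor of NF-kB signalling, had 1 peak, at its start.

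**Figure D4:**
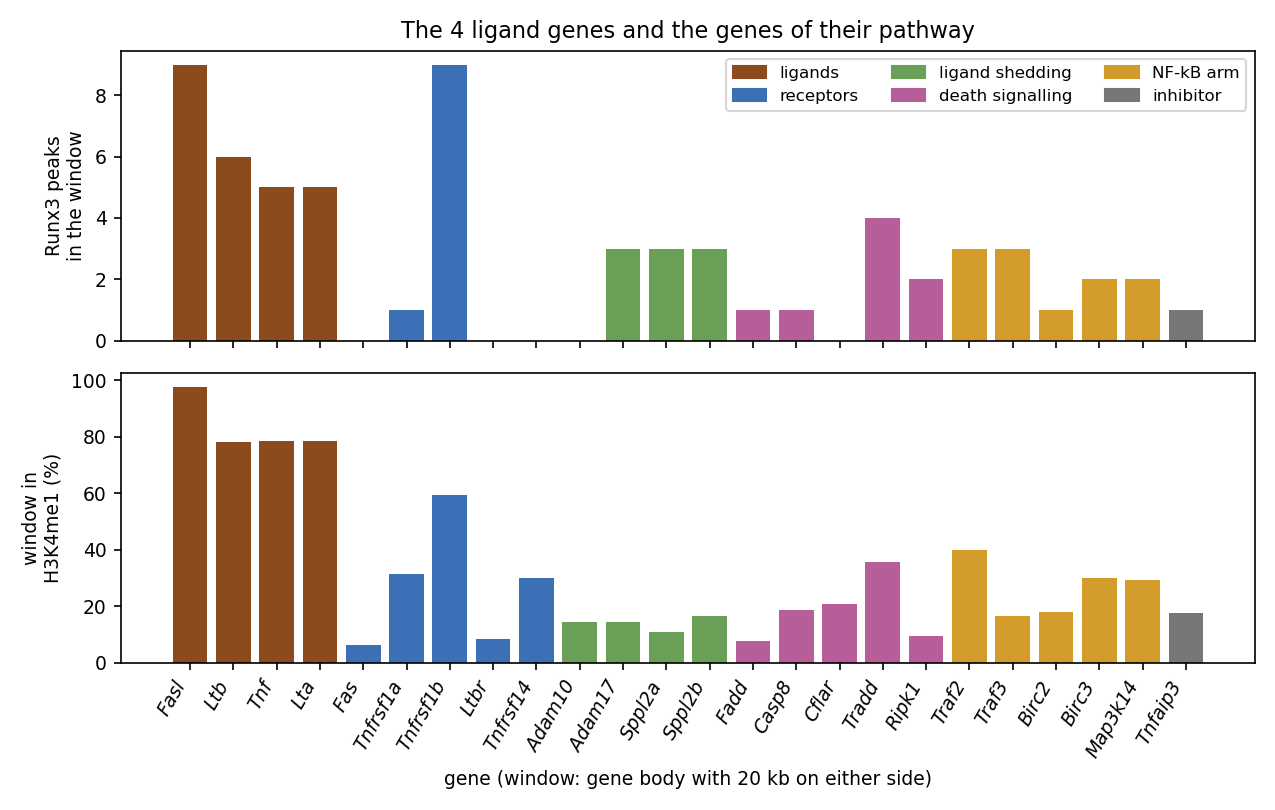
Runx3 peaks in the window (top, number) and share of the window in H3K4me1 (bottom, %) for the 4 ligand genes and the 20 genes of their pathway, coloured by role. The ligand genes had 5 to 9 peaks and 78.1 to 97.7% cover, and of the others Tnfrsf1b alone reached 9 peaks, with 59.5%.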

How the data were processed

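Per the labels, 40 bp reads from a Genome Analyzer IIx were aligned to mm9 with ELAND (CASAVA 1.7 in the submitters' processing notes). The methods add that reads of biological repeats were joined and regions called with MACS against NIS, whereas the labels call each sample a first immunoprecipitation. The Runx3 list held 15524 regions, the same number that the study reported for resting NKC and for which its methods describe joined reads. The positions alone do not show which reads were used. The deposited files were 2 BED lists of region positions. Their score columns were filled with 0, so the authors' values of strength were not used and the depth at each region is unknown. The number of reads therefore limits the regions that could be called, and a gene without a peak may still be bound.

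Positions were made 1-based and compared with annotated genes of mm9 (GENCODE) in Python 3.11.15 with numpy 2.4.6. The 20 chromosomes matched in name, and 1 H3K4me1 region ended past the end of its chromosome. A region counted when it shared at least 1 bp with the gene body and 20 kb on either side. Distances were taken from the annotated gene start to the midpoint of a peak unless stated. Consensus sequences were searched on both strands of mm9 and compared with windows of the same length at the midpoints of all Runx3 peaks and of H3K4me1 regions without a Runx3 peak. The counting was tested on simulated regions with known overlaps. The genes named were the 4 ligand genes, genes in their windows, genes at the nearest starts, and those of the pathway list without a peak or among the 3 with most, ties included. Tnfaip3 was added after its value was seen, and the NK and T cell markers were named from the marker lists as a check of the cells. Sppl2a and Sppl2b were found under older symbols. The members and the gene lists were chosen with earlier results of these data known. With 1 list per antibody no test was made. Alternatives changed the flank to 5, 10 or 50 kb, the overlap rule, the merging of regions less than 500 bp apart and the set of genes.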

Additional observations from a re-analysis of the deposited data

How the results depend on the processing

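Most counts changed with the width of the window. With 5 and 10 kb on either side, Fasl had 4 and 5 Runx3 peaks in place of 9, and the Tnf locus 3 and 4 in place of 7. With 50 kb Fasl had 10 and the Tnf locus 12. With 5, 10 and 50 kb, H3K4me1 regions numbered 2, 2 and 7 at Fasl in place of 3. At the Tnf locus they numbered 3, 3 and 14 in place of 7. H3K4me1 cover at Fasl was 96.6, 97.8 and 60% with 5, 10 and 50 kb, against 97.7%, and at the Tnf locus 83.7, 78.6 and 64.1%, against 79.0%. The share of protein-coding genes with a peak was 39.8, 44.3 and 62.6% with these flanks, and 40.7% over all annotated genes, against 51.0%. Counting by midpoints or merging regions less than 500 bp apart left 9 peaks at Fasl, and 7 or 6 at the Tnf locus. By midpoints, H3K4me1 regions numbered 3 at Fasl, unchanged, and 5 at the Tnf locus in place of 7. All 16 peaks also met the midpoint and half-length rules for H3K4me1, and 10 of the 15 with a RUNX match kept one in the central 200 bp. Among 12640 genes with windows up to 60 kb, an alternative chosen after seeing the data, the share with as many peaks was 0.119% for Fasl, 1.05% for Ltb and 2.6% for Tnf and Lta. No paired analysis was possible because each antibody had a single list.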

Other observations

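Beyond the windows, within 50 kb of the genes, Fasl had 1 further Runx3 peak, intergenic and 53.5 kb downstream of its start (chromosome 1, 163664561 to 163665657). The Tnf locus had 5 further peaks, all upstream of Tnf and Lta and at other genes. They lay 29.3 kb (an intron of Nfkbil1), 31.1 kb (over the start of Atp6v1g2, a subunit gene of the vacuolar proton pump), 39.5 and 40.9 kb (over starts of the RNA helicase gene Ddx39b) and 44.5 kb (in Ddx39b) from the Tnf start. H3K4me1 covered 78.4 and 93.6% of the peaks at 39.5 and 40.9 kb and the whole of the other 3.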
